A study of Carassius gibelio with 26 samples.

Results

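The 150 genes described here were chosen by their levels within 1 group of triploid gibel carp males, triploid group 1, in which 2 of 5 testes held far less of their RNA than the other 3. Levels are given as CPM, the count of a gene divided by the total count of its library and multiplied by 1e6. For each of the 62094 genes outside the mitochondrial sequence (of 62131 in the table), the lowest CPM of group 1 replicates 3, 4 and 5, plus 0.5, was divided by the higher CPM of replicates 1 and 2, plus 0.5. The 150 genes with the highest ratio are called the members. Values within group 1 chose them, so those values are a description with no test. Apart from an outlier check and 1 alternative fit, both in the last sections, all tests below used the 21 males outside group 1, which had no part in the choice.

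Gibel carp (Carassius gibelio) is a cyprinid fish that reproduces both sexually, as diploids, and by gynogenesis, in which sperm of the same or another species activates an egg and adds no genes to it. RNA of the testes of 2-year-old males was sequenced, each male giving 1 library. The 10 diploid males (2n) came from crosses of diploid parents at 22 °C. The triploid males were sex-reversed gynogenetic offspring. Group 1 (5 males, 28 to 31 °C) came from a female whose brood gave males only when warm. Groups 2 (5 males, 28 to 31 °C) and 3 (6 males, 22 °C) came from a female whose brood also turned male in large part at 22 °C. The library names end in 31 for group 1 replicates 1 to 3 and for all of group 2, and in 28 for group 1 replicates 4 and 5. A second number in the names has no stated meaning. It is 14, 106 or 108 in 2n males, 4, 6, 5, 5 and 4 in group 1 replicates 1 to 5, 11 in group 2, and 12 (replicates 1 and 2) or 11 (replicates 3 to 6) in group 3. How many mothers each group had is uncertain, and males of 1 gynogenetic mother share her genome, so the spread that the p-values rest on is that between kin. Diploid and triploid males differ at once in chromosome sets, parents and origin by sex or gynogenesis, and group 2 differs from 2n in temperature too, so these cannot be told apart.

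A fish testis is built of cysts, in which Sertoli cells nurse clones of germ cells that pass together from spermatogonia through meiosis to spermatids and sperm, with Leydig cells between the cysts making androgens. Germ cells in and after meiosis make a large set of transcripts that other cells do not, so that the RNA of a whole testis follows the stages it holds. A set of genes that rises and falls together from male to male can therefore describe the state of a testis. In whole-testis RNA, fewer cells of a type and less RNA per cell cannot be told apart. The gene identifiers belong to the goldfish annotation ASM336829v1, and 0 of the 62131 matched the gene table at hand, so the members have no names or known roles here. For the same reason lists of Sertoli, Leydig, germ cell, meiosis, spermatid, oocyte, blood, immune and muscle markers had 0 matched genes, and the labelled tissue was not checked against markers.

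The ratio ran from 64.5 in the first member to 11.3 in the last, with a median of 15.6. In replicate 1 of group 1 the members lay between 0.0425 and 60.8 CPM, with a median of 6.21, and in replicate 2 between 0.0845 and 132 CPM, with a median of 7.03. The medians in replicates 3, 4 and 5 were 134, 122 and 152 CPM. No member had a count of 0 in replicate 1 or 2, although 19 and 17 members were under 1 CPM there. The last member (chromosome 11, 15436701 to 15437936, minus strand, 3 exons) stood at 9.95 and 9.54 CPM in replicates 1 and 2, and at 122, 118 and 133 CPM in replicates 3 to 5, a ratio of 11.33. The gene just outside (chromosome 16, 25845354 to 25853305, minus strand, 16 exons) stood at 11.2 and 9.12 against 136, 132 and 148 CPM, a ratio of 11.29. The limit thus falls in an unbroken series: 261 genes had a ratio over 8, 626 over 4 and 1580 over 2, the last being 2.54% of the genes ranked.

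**Figure D1:**
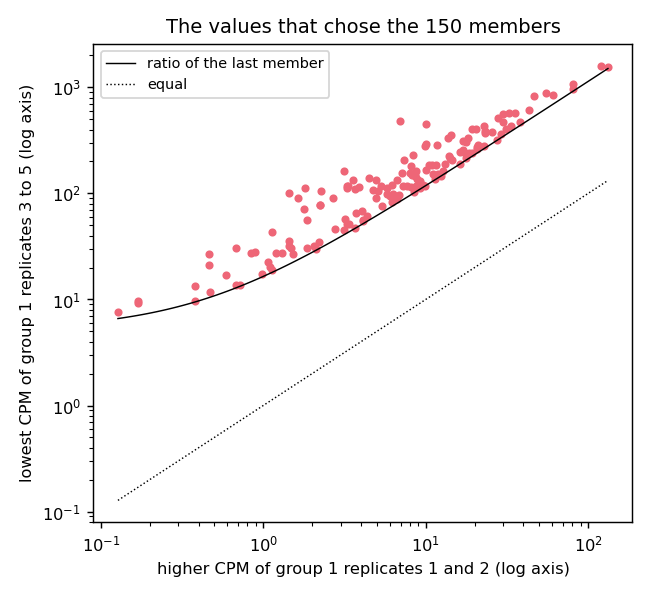
The higher CPM of group 1 replicates 1 and 2 (x axis, log scale) against the lowest CPM of replicates 3 to 5 (y axis, log scale), 1 point per member; the solid line is the ratio of the last member (11.3) and the dotted line equality. All points lie on or above the solid line by the rule, and the members span several orders of magnitude in level.

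Both low males carry 31 in the library name, as does replicate 3, which was high, and both males that carry 28 were high. Replicates 1 and 5 carry the second number 4, and of these replicate 5 was high. With 5 males the part of temperature or of the second number was not tested. The low males were not shallow libraries, with 23515626 and 23680170 counts against 22913600, 26052012 and 25455279 in replicates 3 to 5. They had the highest counts of detected genes of all 26 libraries, 53114 and 52891, and the highest normalization factors by TMM (trimmed mean of M values, which corrects for a few genes that take up many counts), 1.45 and 1.36 against 1.05 to 1.09 in replicates 3 to 5. In these 2 males 70.5% and 70.7% of all genes tested lay above their 2n median, against 47.1% to 50.9% in replicates 3 to 5. The part these features have in the members' levels was not tested. Of the 150 members 0 lay above their 2n median in the 2 low males. The rule favoured low values there, so nothing is read from that count.

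Set beside the 21 males outside group 1, the 2 low males stood alone. In 141 of the 150 members both were below every 2n, group 2 and group 3 male. For all 40618 genes tested that share was 6.74%, but the rule favoured low values in these males, so nothing is read from the difference. The members took 0.14% and 0.189% of all counts in replicates 1 and 2, against 3.27%, 3.2% and 3.87% in replicates 3, 4 and 5. In 2n males they took from 1.56% to 4.71%, with a mean of 2.42% ± 1.02 (SD, n = 10). Group 2 males (n = 5) gave 4.25% ± 0.459, and group 3 males (n = 6) gave 3.68% ± 0.968. The shares of the 3 high males of group 1, which the rule favoured, lay within the range of 2n males. In 106 members all 3 lay within the 2n range, in 42 at least 1 lay above it (all 3 in 16), and in 2 at least 1 lay below it. The rule favoured high values in these males and the same counts were not made over all genes, so nothing is read from them.

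The member with the highest ratio was ENSCARG00000006766 (chromosome 18, 3721840 to 3742859, plus strand, 8 exons). It stood at 4.12 and 6.97 CPM in group 1 replicates 1 and 2 and at 501, 481 and 633 CPM in replicates 3 to 5. In 2n males it ran from 210 to 681 CPM with a median of 291. In group 2 the 5 males had 611, 734, 633, 664 and 502 CPM. In group 3 the level ran from 381 to 776 CPM, with a median of 501. Groups 2 and 3 lay mostly in the upper part of the 2n range, and the ranges overlapped. Against 2n the log2 fold change was 1.06 ± 0.28 (SE) in group 2 (edgeR quasi-likelihood test, adjusted p = 0.0059). In group 3 it was 0.89 ± 0.27 (adjusted p = 0.0102, edgeR).

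The second member, ENSCARG00000057711 (chromosome 14, 18959173 to 18961602, plus strand, 4 exons), was at 0.808 and 1.44 CPM in the low males and at 111, 100 and 120 CPM in replicates 3 to 5. In 2n males it ran from 38.3 to 208 CPM, with a median of 62.2. In group 2 it was at 159, 183, 176, 189 and 123 CPM, and in group 3 it ran from 98.5 to 211 CPM with a median of 123. The highest 2n male, replicate 7, was as high as the triploid males, and the ranges overlapped. The gene rose by 1.22 ± 0.35 (SE) on the log2 scale in group 2 (adjusted p = 0.0102, edgeR). In group 3 the rise was 1.04 ± 0.34 (adjusted p = 0.0159, edgeR).

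**Figure D2:**
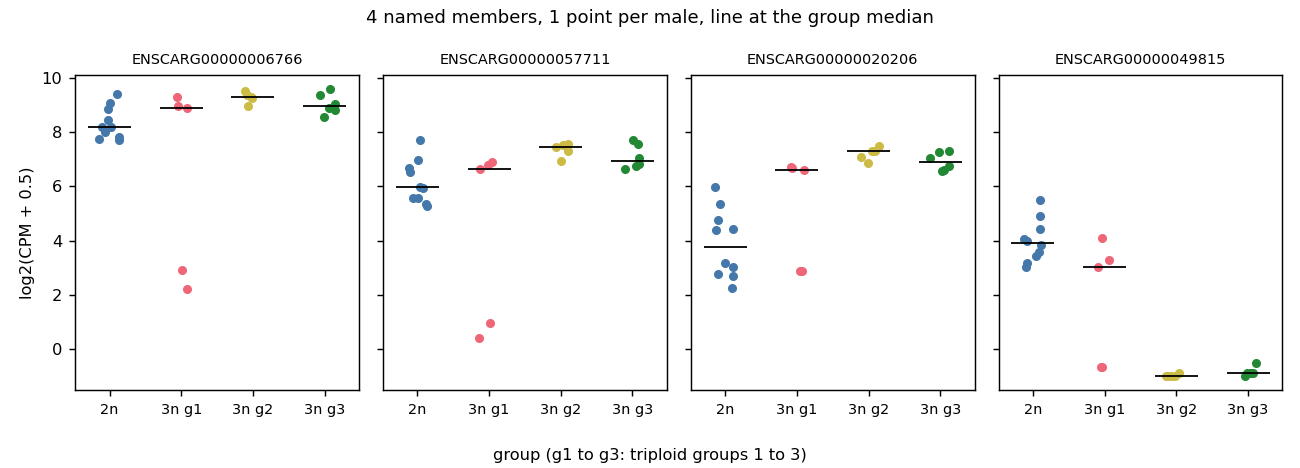
log2(CPM + 0.5) of 4 members (y axis) by group (x axis; g1 to g3 are the triploid groups), 1 point per male and a line at the group median. In each panel 2 group 1 males lie far below the other 3; ENSCARG00000020206 is low in 2n as well, and ENSCARG00000049815 is near the floor in groups 2 and 3.

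To set the members side by side, each level was taken as log2(CPM + 0.5) less the gene's mean over 2n males. The median over the 150 members was -3.75 in group 1 replicate 1 and -3.51 in replicate 2. In replicates 3, 4 and 5 it was 0.64, 0.59 and 0.83. In the 10 diploid males it ran from -0.53 to 1.1, so the low males were about 3 log2 units below the lowest diploid male. No male stood in between. The rule favoured low values in these group 1 males, so nothing is read from that gap. In group 2 the medians were 0.91, 1.05, 1.02, 0.92 and 0.63. In group 3 they ran from 0.25 to 1.21.

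**Figure D3:**
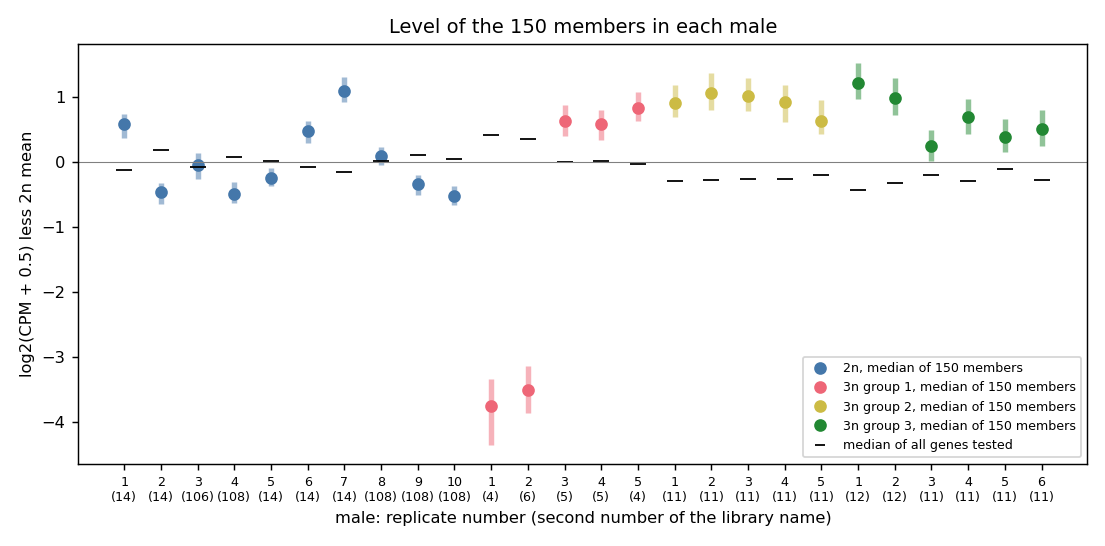
log2(CPM + 0.5) less the 2n mean (y axis) in each of the 26 males (x axis: replicate number, with the second number of the library name in brackets). Points are medians and bars quartiles over the 150 members, and black dashes are medians over all genes tested; group 1 replicates 1 and 2 lie at -3.75 and -3.51, and every other male between -0.53 and 1.21.

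Each diploid male had most members on the same side of the 2n median, though replicate 3 was the most mixed. In replicate 7, 148 of 150 members were above their 2n median, in replicate 6 141, and in replicate 1 138. In replicate 10 only 11 were, in replicate 2 13, in replicate 4 17 and in replicate 9 29. Replicates 3, 5 and 8 held 93, 40 and 120. Over all genes tested these shares ran from 36% in replicate 1 to 65.1% in replicate 2. A shift common to all members, 1 value per male, held 59.6% of the variance of the members' log2 levels among 2n males, against 4.15% for all genes tested. It held 62.2% in group 2 (1.45% for all genes) and 87.6% in group 3 (12.8%). The members were on the whole more abundant than other genes (median of the mean CPM over the 24 males other than the 2 low ones, 132 against 6.22), and abundant genes carry less counting noise. CPM also scales each library to its total, which holds down a shift common to all genes, but less so a shift of a small set. How far either point moves these shares was not tested. The 2n male with the highest member levels, replicate 7, was also the shallowest library, with 15375923 counts. The part of depth in its level was not tested.

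Diploid males of different second numbers overlapped in their member levels. The 5 males of number 14 had member medians of 137, 71.2, 75, 135 and 202 CPM, and the 4 of number 108 had 61.6, 92.2, 64.4 and 60.8 CPM, so 2 of the 5 males of number 14 lay within the range of number 108. In a separate edgeR quasi-likelihood test of these 9 males, 19 of 150 members were higher in number 14 and 0 lower, where 7.24% of the 39725 genes tested were called higher and 7.01% lower. In 9 members all males of number 14 were above all of number 108 (4.95% of all genes), and in 1 they were below (9.75%). The median log2 fold change was 0.83 for the members and 0.02 for all genes. The count was unstable: leaving out any 1 of the 9 males moved it by over 1.5 times, between 4 and 79, and DESeq2 called 43 higher and 1 lower.

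**Figure D4:**
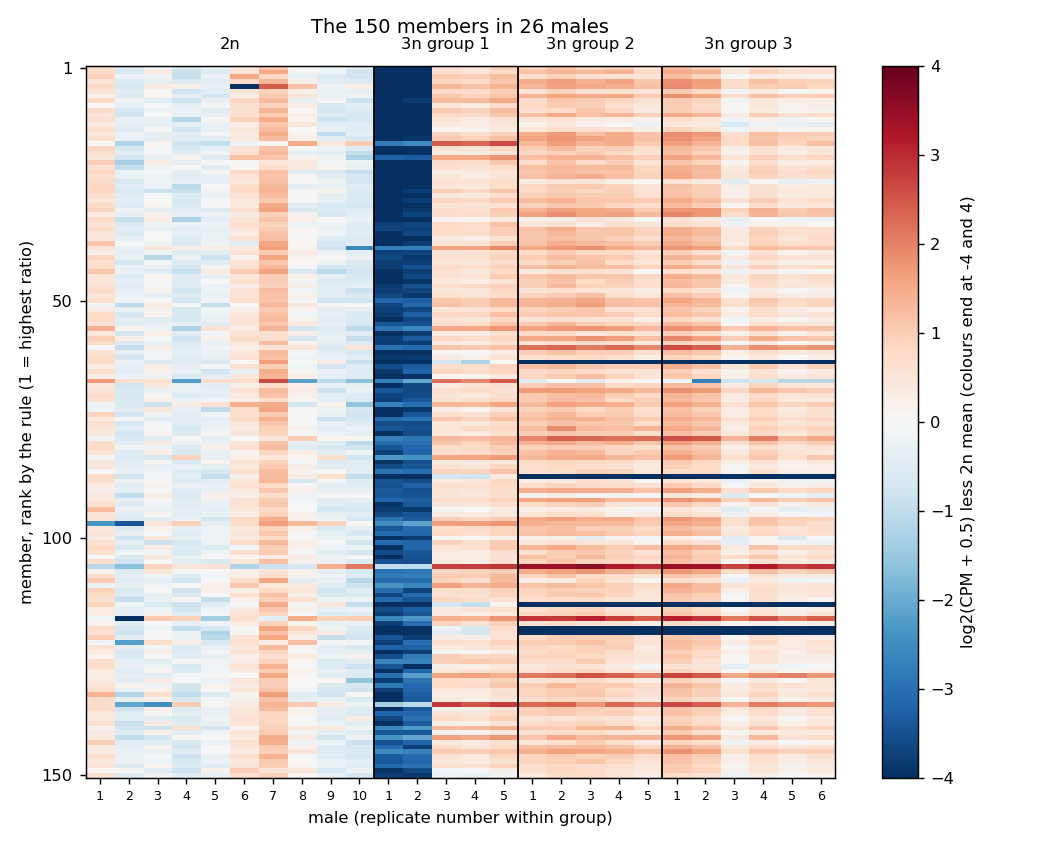
log2(CPM + 0.5) less the 2n mean (colour) of the 150 members (rows, by rank) in 26 males (columns, by group). Most columns of 2n and group 3 lean to 1 colour, while 2n replicates 3 and 8 have quartiles on both sides of the 2n mean. The 2 low group 1 columns lie below the 2n mean in every row, by unequal amounts, and 5 rows are dark blue across all of groups 2 and 3.

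Most members were higher in triploid groups 2 and 3 than in diploid males. In group 2, 116 of 150 members rose and 5 fell (edgeR, adjusted p under 0.05 over 40618 genes), where 16.2% of all genes tested were called higher and 20.1% lower. In group 3, 109 rose and 5 fell, against 20.0% and 25.5% of all genes (45.6% in both directions together). All 150 members passed the filter on low counts in this fit, but 4 of the 5 that fell were near 0 in groups 2 and 3 and passed through the 2n males alone. With only groups 2 and 3 in the fit 146 members passed, without those 4, so their calls had to be lower and are read below as counts only. The median log2 fold change was 1 in group 2 (quartiles 0.79 and 1.3) and 0.84 in group 3 (quartiles 0.64 and 1.14), where the medians over all genes were -0.1 and -0.08. These comparisons share the 2n males. The members were also more abundant than other genes (median of the mean CPM 132 against 6.22), and abundant genes are called more readily. The rule asked for high levels in 3 triploid males of group 1 as well. How far either point sets the members apart from all genes, here and in the other comparisons, was not tested. In 23 members every group 2 male was above every 2n male (3.92% of all genes tested), and in 9 members every group 3 male was (2.85%). The 5 that fell, among them the 4 that passed through 2n alone, lay below all 2n males (11.2% and 8.61% of all genes did so in groups 2 and 3), and nothing is read from that count. For most members the groups overlapped, with 2n replicate 7 inside the triploid range.

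The size of these differences depended on which diploid males stood for 2n. Against the 5 males of number 14 alone, 64 members were higher in group 2 (19.7% of all genes) and 51 in group 3 (22.7%), and 6 were lower in each (24.0% and 26.8%). Against the 4 males of number 108, 144 were higher in group 2 (23.7%) and 142 in group 3 (26.7%). In each group 5 were lower (29.0% and 31.5%). In these fits too, the 4 members that passed the filter through 2n alone could only be called lower. Nothing is therefore read from the lower counts or from the shares beside them. The median log2 fold changes of the members were 0.68 and 0.53 against number 14, and 1.52 and 1.36 against number 108.

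**Figure D5:**
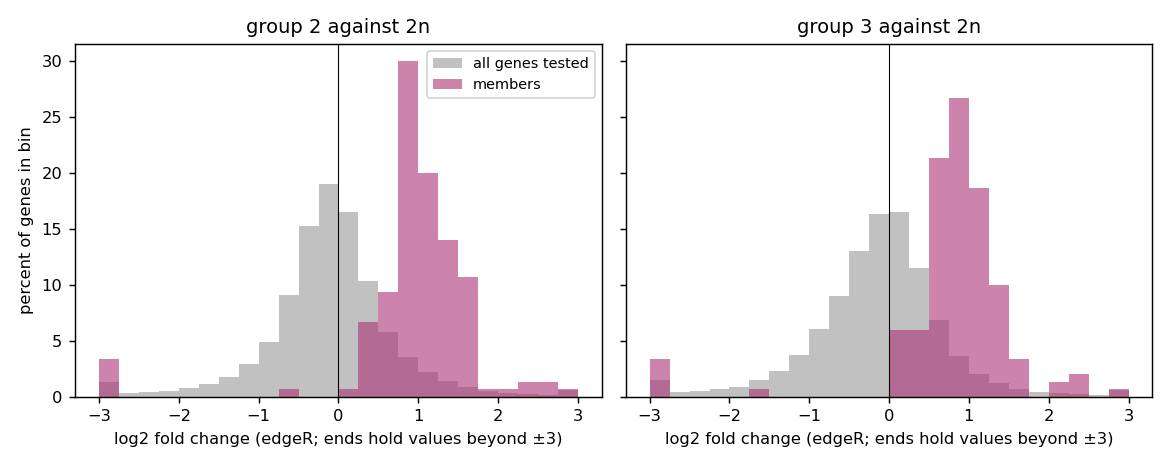
Percent of genes (y axis) by log2 fold change (x axis, edgeR, bins of 0.25; the end bins hold all values beyond ±3) for the 150 members and for all 40618 genes tested, in group 2 and in group 3 against 2n. The members centre on 1 and 0.84 and all genes on -0.1 and -0.08; the left end bin holds the 5 members that fell.

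Groups 2 and 3, reared warm and at 22 °C, could be compared on the same kind of mother. No member was called (0 of 150, edgeR), as was no gene of the 40618 tested (0%). At an unadjusted p under 0.05 there were 0 members and 889 genes, and DESeq2 called 0 members as well. That fit shares its spread with the 2n males. The median SD of the members' log2 levels was 0.607 in 2n, 0.189 in group 2 and 0.384 in group 3. With groups 2 and 3 alone in the fit, edgeR called 0 members and 0.00269% of genes in each direction. In that fit 2 of 146 members and 4221 of 37162 genes had an unadjusted p under 0.05 (edgeR). The part of the 2n spread in this difference was not tested. The median log2 difference was 0.16 for the members, and 0 members had groups that did not overlap (0.480% of all genes were higher in group 2 without overlap, and 0.219% lower). A p that misses the threshold does not show that the groups were alike.

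Group 3 was itself divided along the second number of the library name. Replicates 1 and 2, of number 12, had member medians of 210 and 176 CPM. Replicates 3 to 6, of number 11, had 101, 141, 113 and 130 CPM. In 143 of 150 members both males of number 12 were above all 4 of number 11, where 8.79% of all genes tested showed that order, and in 0 members they were below (25.7%). The members moved together in this group, where 1 value per male held 87.6% of their variance. The 143 are therefore close to 1 ordering of the males and not separate evidence. With 2 males in 1 set no test was made.

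All group 2 males carry the number 11, and a comparison with the 4 group 3 males of that number was added after the data were seen. Group 2 had member medians of 171, 186, 188, 178 and 138 CPM, 4 of them above the highest of the 4 males at 22 °C. The members' log2 difference had a median of 0.5, against 0 over all genes. In 39 members the groups did not overlap with group 2 higher (2.70% of all genes), and in 1 with group 2 lower (3.74%). That 1 member, ENSCARG00000049815, was near 0 in both groups, at most 0.0374 CPM in group 2. It was not among the members that passed the filter in the fit below, so nothing is read from it. Fitted with these 9 males alone, 94 of the 146 members that passed the filter were higher in group 2 (edgeR, adjusted p under 0.05), against 1.82% of 37443 genes, and 0 were lower (0.227%). The call did not hold up to the choice of males. It fell to 0 without group 3 replicate 3 or replicate 5, to 1 without group 3 replicate 6, and to 4, 9, 15 and 52 without group 2 replicates 1, 2, 3 and 4. Without group 2 replicate 5 the count rose to 128, and without group 3 replicate 4 to 133. With the 2n males also in the fit 0 members were called. The median difference stayed between 0.43 and 0.59 when any 1 male was left out.

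A set of 5 members left the common pattern in groups 2 and 3. These are the 5 that fell against 2n in both tests. For 4 of them that call was fixed by the filter, so they are described here by their counts and nothing is read from the calls. The lowest was ENSCARG00000049815 (scaffold QPKE01006683.1, 2476857 to 2480853, minus strand, 9 exons). It ran from 7.72 to 44.2 CPM in 2n males, with a median of 14.6, and stood at 9.34, 7.56 and 16.7 CPM in group 1 replicates 3 to 5 and at 0.128 and 0.127 CPM in replicates 1 and 2. In group 2 it had 1 count in 5 males together, and in group 3 8 counts in 6 males. All 11 of these males lay below all 2n males. Over pooled counts the 2n level was 295-fold that of group 3 (95% interval 149 to 683, exact, counting error only) and 1862-fold that of group 2 (interval 334 to 73565). Group 3 replicate 5 held 4 of the 8 counts, and without that male, a setting added after the data were seen, the ratio was 504 (interval 197 to 1850). Without group 2 replicate 5, group 2 had 0 counts. These intervals leave out the spread between males. The gene passed the filter through 2n alone and was chosen as the lowest, so the ratios are no test of the groups.

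The other 4 were alike in kind. A gene on chromosome 42 (16492122 to 16497480, 8 exons) averaged 18.7 CPM in 2n males and had 4 counts in all of group 2 and 3 in all of group 3. A gene on chromosome 17 (27268585 to 27273150, 8 exons) averaged 21.5 CPM in diploid males and had 8 and 9 counts in the triploid groups. Both of the last lie on chromosome 19. The gene at 6701749 to 6703632 averaged 59.5 CPM in diploid males, with 0.223 CPM in group 2 and 0.224 CPM in group 3. The gene at 7632748 to 7634687 averaged 48.9, 1.51 and 1.64 CPM. Over pooled counts it was 31-fold higher in 2n than in group 2 (95% interval 26.6 to 36.4, exact, counting error only). That interval leaves out the spread between males, and 2n males ran from 22.3 to 134 CPM. Without 2n replicate 7, a setting added after the data were seen, the ratio was 26.5. In group 1 replicates 3 to 5 these 4 genes stood between 9.21 and 85.5 CPM. The rule required every member to be high in those males, so nothing is read from their distance to groups 2 and 3. Males of groups 2 and 3 held most other members at or above the 2n level. All reads were counted on goldfish gene models.

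Single males left the pattern in further members. After the common shift of each male was taken out, 81 of 3600 values (150 members in the 24 males other than the low ones) deviated by over 4-fold from the gene's median, in 12 members, and 138 members had none. The 5 members just described were among the 12. A member on scaffold QPKE01005484.1 (8137 to 12103) was at 1.95 CPM in 2n replicate 6 and between 26.1 and 222 CPM in the other 9 diploid males. A member on chromosome 11 (9090473 to 9125452) was at 1.23 and 0.307 CPM in 2n replicates 1 and 2, with a 2n median of 12.8. On scaffold QPKE01008293.1 (27673 to 32228) a member was at 0.57 CPM in 2n replicate 2, at 6.2 in replicate 5 and at 13.3 in replicate 7, with a 2n median of 29.9. On chromosome 17 (26319123 to 26323249) another was at 0.307 and 0.131 CPM in 2n replicates 2 and 3, with a 2n median of 3.72. On chromosome 6 (9180557 to 9198646) a member was at 22.6 CPM in 2n replicate 10, against a 2n median of 166. A member on scaffold QPKE01007662.1 (33906 to 36378) was at 0.0426 CPM in group 3 replicate 2 and between 1.19 and 2.76 CPM in the other 5 males of that group. In group 1 replicates 3 to 5 that gene reached 16.2, 13.4 and 19.2 CPM, above the common shift by over 4-fold, as it was in 2n replicate 7 at 22.3 CPM. The rule favoured high values in those group 1 males, so nothing is read from their deviation.

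The member with the largest rise was ENSCARG00000020206 (chromosome 1, 30521115 to 30522343, minus strand, 2 exons). Group 2 males had 156, 160, 179, 134 and 117 CPM, and group 3 ran from 95.7 to 158 CPM with a median of 120. In 2n males it ran from 4.26 to 62.7 CPM with a median of 14.4, and all 11 triploid males were above all 10 diploid males. In group 1 replicates 3 to 5 it was at 97.2, 102 and 106 CPM, and in replicates 1 and 2 at 6.89 and 6.84 CPM, levels that 3 of 10 diploid males undercut. The log2 fold change was 3.16 ± 0.43 (SE) in group 2 (adjusted p = 9.4e-06, edgeR). For group 3 the value was 2.93 ± 0.41 (adjusted p = 1.2e-05, edgeR). This gene was chosen for the largest mean rise in these same comparisons. Its fold changes, p-values and separation are thus those of a picked extreme. Among diploid males its order was not that of the set: replicates 1, 6 and 7, high in the set, had 6.37, 5.9 and 7.61 CPM, and replicates 9 and 10, low in the set, had 40.2 and 62.7 CPM. Replicate 2, also low in the set, was the lowest for this gene at 4.26 CPM.

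The members shared no run of the genome. The median member had 9 exons, as had the median of all genes tested, and a summed exon length of 1770 bp against 2149 bp. A single exon was found in 6 members (4%) and in 3.7% of genes tested. The members were scattered over 40 of the 50 numbered chromosomes, with at most 6 on any 1, and over 30 unplaced scaffolds. Chromosomes 1 to 25 held 81 members (54%) and chromosomes 26 to 50 held 34 (22.7%), where 43.7% and 33.6% of all genes tested lie. Only 3 pairs of members lay within 100000 bp of each other, each with 3 to 6 other genes between. These pairs are on chromosome 30 (14496407 to 14499491 and 14545144 to 14559362), on chromosome 31 (5633672 to 5663420 and 5739524 to 5759776) and on scaffold QPKE01003584.1 (861773 to 863163 and 944443 to 947352). The members' abundance outside group 1 spanned from 3.82 CPM to 1874 CPM as a mean over 21 males, and 90 members averaged at least 100 CPM.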

How the data were processed

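Per the labels' protocols, testis RNA was extracted and sequenced with 1 library per male. Tools listed in the submitters' processing notes were STAR 2.7.3a, Subread 2.0, cutadapt 4.3, Picard 2.25.6, FastQC and MultiQC 1.10.1. The deposited table holds raw counts that, per the file headers, were made by featureCounts 2.0.6 over the exons of each gene, reverse-stranded, from proper pairs of 1 to 25000 bp with a minimum mapping quality of 0, on the goldfish annotation ASM336829v1, so reads of near-identical gene copies or diverged sequence may be missing or divided. The summed exon length per gene, an other deposited value, was used only to describe genes. Totals ran from 15375923 to 29503544 counts. Among 80 within-group library pairs, 0 were identical (lowest chi-square per gene 3.94).

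The members and lists were chosen with earlier results of these data known. CPM was computed from the deposited counts over column totals, and exons were merged where they overlap. Tests were edgeR 4.0.16 quasi-likelihood tests (R 4.3.3) of the deposited counts, with TMM, the edgeR filter (minimum count 10), robust estimation and Benjamini-Hochberg adjustment over all genes tested. Group 2, group 3 and 2n were fitted together without group 1, whose spread for the members was fixed by the rule. Standard errors came from the F statistic. Named by identifier were the 2 members with the highest ratio and, of members called in groups 2 and 3 in the same direction, the 1 with the highest and the 1 with the lowest mean log2 fold change. Members named by position alone lie at the limit of the rule, are neighbours, or, chosen after their values were seen, leave the common pattern. Replicate numbers did not pair samples. Alternatives were other normalizations, filters, thresholds, sets of males, DESeq2 1.42.0, a replicate block and other forms of the rule.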

Additional observations from a re-analysis of the deposited data

Results flagged for a closer look

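Each of 10 measures was examined in the 4 groups, 40 sets in all, for a male whose gap to its nearest neighbour exceeded the 95% critical value of Dixon's test, which chance exceeds in about 1 of 20 sets. There were 3 such cases, all in members near 0 in groups 2 and 3. ENSCARG00000049815 stood at -0.896 on the log2(CPM + 0.5) scale in group 2 replicate 5, from 1 count, where the other 4 males had 0. In group 3 replicate 5 it stood at -0.534 (0.191 CPM), above a group median of -0.883. The member on chromosome 17 (27268585 to 27273150) stood at -0.534 (0.191 CPM) in that same male, against a group median of -0.883. All 3 values rest on a few counts.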

How the results depend on the processing

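Against 2n, 121 members were called in group 2 and 114 in group 3. Counts of calls in this section add both directions. In the main fit each total holds 5 lower calls, of which 4 were fixed because those members passed the filter through 2n alone. With all 4 groups in the fit, where the spread of group 1 enters, the counts were 38 and 33; with 2n limited to number 14 they were 70 and 57; at adjusted p under 0.01 group 3 had 70. Leaving out 1 male gave 105 to 140 in group 2 and 77 to 136 in group 3. Upper quartile, RLE or no normalization, no filter, DESeq2, members chosen again with 5 added or with TMM-scaled CPM, fits of the compared groups alone and number 108 alone kept both within 1.5 times. Replicate numbers do not pair the males (deviations of males sharing a number correlated above 0.1 in 4 of 16 pairs); with a replicate block the counts were 140 and 132, and 0 for group 2 against group 3. That comparison stayed at 0 in all fits with all 6 group 3 males, also leaving out 1 (0 to 0). With group 3 limited to number 11 and no other group in the fit it was 94, then 0 to 133 leaving out 1 male, 65 with RLE normalization, 53 with no filter and 0 with the 2n males in the fit; the cause was not tested. Number 14 against 108, 19, was 44 with DESeq2, 3 at adjusted p under 0.01 and 4 to 79 leaving out 1 male. The rule with other added values, TMM-scaled CPM or 1 group 1 male left out kept 113 to 150 of the 150 members (117 to 150 leaving out 1 male). The member level of group 2, 0.92, was 1.23 with TMM-scaled CPM; those of group 1 replicates 1 and 2, -3.75 and -3.51, were -3.02 and -2.91 with 5 added to CPM, which damps low genes. For the 8 members tested singly, 690 of 712 alternative values kept direction and side of the threshold, 12 lost a call and 10 gained one. All 12 lost calls had positive fold changes, as had 366 of the 690. Among the 8 are the same 4 members that passed through 2n alone. Their direction was fixed, so the total is not read as a sign of stability.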
